A study of Mus musculus with 22 samples.

Results

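A set of 58 genes of chemokine, cytokine and vascular inflammation signaling was examined for Oct4 ChIP-seq peaks in mouse aorta. It comprised 19 chemokine ligands, 8 chemokine receptors, 7 interleukin ligands, 5 interleukin receptors, 5 TNF ligands and receptors, 4 adhesion molecules, 8 NF-kB, STAT and IRF transcription factors, and 2 genes of the CSF1 axis, out of 21938 protein-coding genes annotated on the chromosomes (GENCODE M21, GRCm38). A peak was assigned to a gene when its summit lay in the gene body or within 50 kb of it, so 1 peak could belong to more than 1 gene. The 58 windows merged into 48 separate regions that together covered 6.47 Mb, or 0.244% of the sequenced chromosomes.

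Aortic segments from root to carotid, including the arch, came from male SMC Oct4-WT/WT mice and their SMC Oct4-Δ/Δ littermates on a C57BL/6 apoE-/- background. All carried a tamoxifen-inducible Myh11-CreERT2 and an eYFP lineage reporter, received tamoxifen, and were fed a Western diet for 18 weeks; the Cre sits on the Y chromosome, hence the use of males. Tissue of 15 mice was pooled for each genotype and gave 1 Oct4 ChIP sample each, so the spread between mice is unknown, no genotype difference carries a p-value, and intervals below cover counting error only. The labels describe a mixture of SMC and other cell types and Oct4 was deleted in Myh11-expressing cells alone, so a peak in the SMC Oct4-Δ/Δ list cannot be attributed to a cell type, and peak lists hold no check that the gene was deleted. The wild-type list held 5455 peaks (4977 on chromosomes) and the knockout list 7479 (7018 on chromosomes). The smallest summit in either list was 5 overlapping fragments over an expected 0.458 (wild-type) or 0.462 (knockout). Within each list all folds fitted that single expected value, so they hold no correction for local background. A further list named for wild-type over knockout was identical to the wild-type list, so one of these names may not describe its call, and the list used here as wild-type may not be the plain wild-type call. Which name is right was not tested.

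Chemokines are secreted proteins that attract leukocytes through G protein-coupled receptors. IL-1 and TNF act on vascular cells through receptors that activate NF-kB, IL-6 family cytokines act through gp130 and STAT3, and the induced selectins, ICAM-1 and VCAM-1 hold leukocytes to the vessel wall, steps that are well known in atherosclerosis. Oct4, encoded by Pou5f1, is a POU-domain factor best known from pluripotent cells, where it binds the octamer ATGCAAAT.

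The reference sequences under 3 of the peaks inside a member or within 10 kb of its transcript start are shown first, from the plus strand of GRCm38 as distributed by RefSeq, as examples of those peaks and not as the closest to a transcript start, which was the peak of Stat3. They are not typical in every respect, since none of the 3 holds a 9-base stretch, described last, that the peaks of Stat3 and Cx3cr1 hold. Il1rap stands for a peak of both lists, for which the wild-type interval is given, and Cxcl10 and Relb for peaks of the knockout alone. Capitals are not used, because none of the motifs searched lay within them.

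Il1rap, wild-type, chr16:26674644-26674684: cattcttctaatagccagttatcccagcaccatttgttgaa

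Cxcl10, knockout only, chr5:92343384-92343422: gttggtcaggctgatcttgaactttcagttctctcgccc

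Relb, knockout only, chr7:19611513-19611551: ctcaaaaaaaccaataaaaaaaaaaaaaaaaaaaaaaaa

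A more distant peak of Ccr1 was added after its values were seen, because it is a tandem repeat, as is the sequence under the tallest wild-type peak of any member.

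Ccr1, wild-type, chr9:123926120-123926181: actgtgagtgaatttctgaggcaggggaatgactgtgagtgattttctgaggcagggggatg

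The share of inflammation genes with an Oct4 peak nearby was near that of all protein-coding genes in the wild-type list. In the knockout list it was lower by a few genes, and the tallest of these peaks were called in both lists. In the wild-type list 10 of 58 genes (17.2%) had a peak within 50 kb, against 18.8% of all protein-coding genes. In the knockout list it was 14 of 58 (24.1%), against 30.5% of all protein-coding genes. These shares carry no interval and some member windows overlap, so a deficit of the members is not shown. Had the peaks of each chromosome been spread evenly over its known sequence, 11.7 members would have had a wild-type peak and 16.5 a knockout peak. Peaks in both lists were found for 9 genes, namely Cxcl9, Ccr1, Cx3cr1, Il1r1, Il1rap, Tnfrsf1a, Irf1, Nfkb1 and Stat3. Sele alone had a peak only in the wild-type list. Ccl17, Cxcl10, Icam1, Relb and Il6st had one only in the knockout list. The other 43 genes had none in either. These classes held 15.5% (both), 1.72% (wild-type only), 8.62% (knockout only) and 74.1% (neither) of the members, against 16.4%, 2.34%, 14.1% and 67.2% of all protein-coding genes.

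None of these member peaks lay in the 1 Mb bins where peaks were crowded (20 or more in either list), which held 37.2% of wild-type and 25.4% of knockout peaks on chromosomes. With the peaks of the crowded bins left out, the even-spread numbers were 8.23 and 13.5 members, below the observed 10 and 14. This direction was fixed in advance, because the observed numbers could not change and the even-spread numbers could only fall. The remaining peaks were still spread over the whole known sequence, crowded bins included. The members' bodies were short, with a median of 10.4 kb against 17.4 kb for all protein-coding genes.

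**Figure D1:**
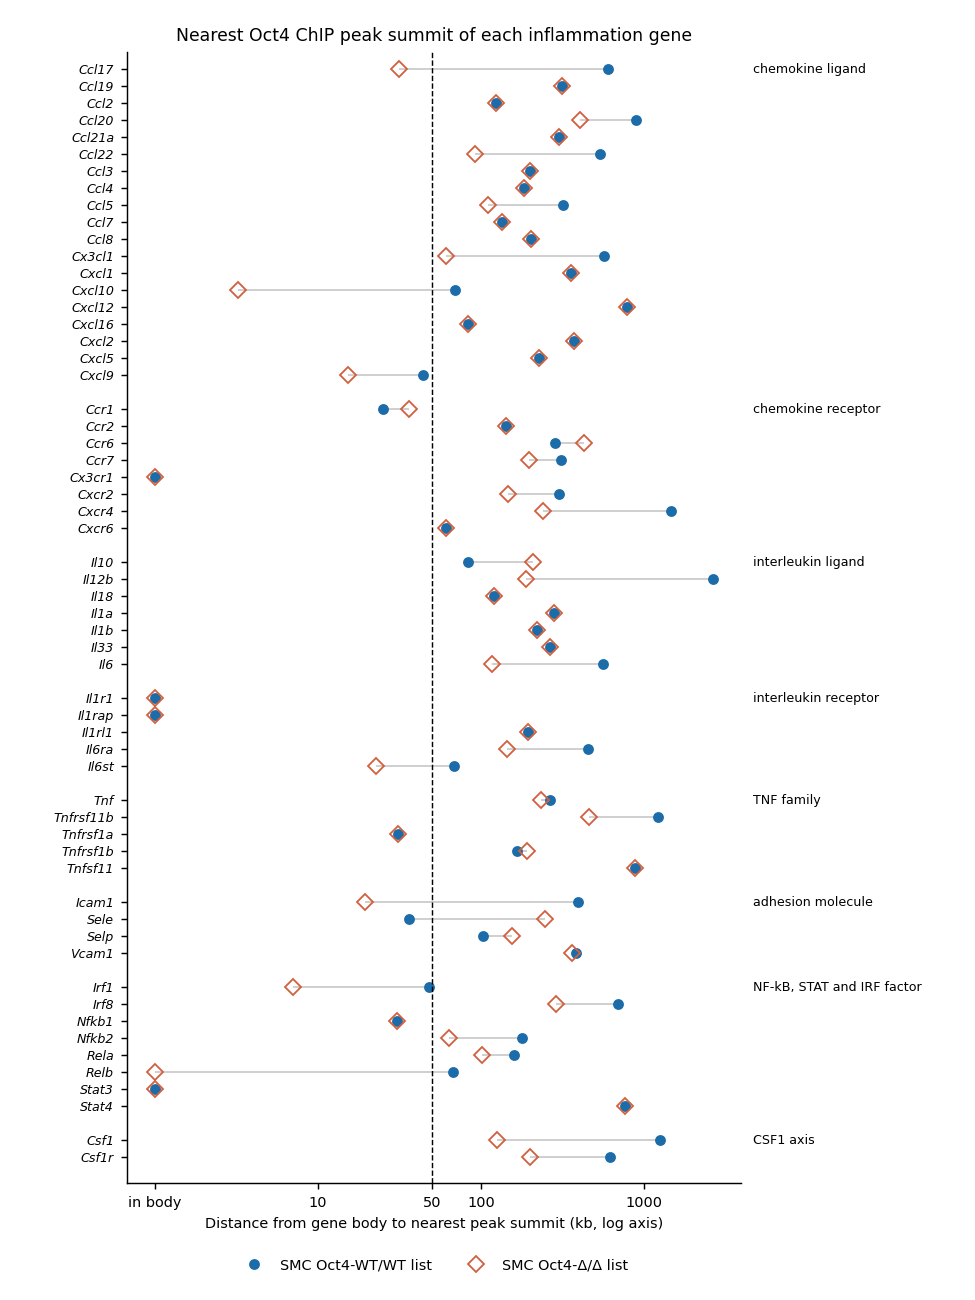
Distance in kb (log axis) from the body of each of the 58 genes to the nearest peak summit in the SMC Oct4-WT/WT list (filled circles) and the SMC Oct4-Δ/Δ list (open diamonds), with genes grouped by role; the dashed line marks 50 kb and summits in the body are drawn at the left edge. Most pairs of symbols lie to the right of the line, and 27 of 58 genes have the same nearest distance in both lists to 3 digits.

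The wild-type list placed 16 peaks near members and the knockout list 18. Of the wild-type peaks 10 were overlapped by a knockout peak (62.5%, exact 95% binomial interval 35.4 to 84.8), close to the 66.7% of all wild-type peaks on chromosomes. Of the knockout peaks 11 were overlapped by a wild-type peak (61.1%, interval 35.7 to 82.7), against 47.6% of all knockout peaks. There were 2 members, Ccr1 and Sele, with a wild-type peak that no knockout peak overlapped, when 4.24% of all protein-coding genes had one. There were 8 members with a knockout peak that no wild-type peak overlapped, when 18.9% of all protein-coding genes had one. The neighborhood of Ccr1 weighed heavily on the wild-type values: without this gene there were 9 wild-type peaks, of which 88.9% were overlapped, and Sele was the only member with an unshared one.

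The taller member peaks were shared. All 3 wild-type member peaks of 21 or more fragments, all 4 of 13 to 20 and all 3 of 9 to 12 were shared, whereas none of the 6 with 5 to 8 fragments was, of which 5 are the Ccr1 group described below and the other is Sele. Over all wild-type peaks the shared percentages in these classes were 100%, 96.6%, 72.8% and 28.8%. In the knockout list all 4 member peaks of 21 or more fragments and both of 13 to 20 were shared, 5 of the 11 with 9 to 12 were, and the 1 peak below that was not. The corresponding percentages over all knockout peaks were 99.5%, 74.1%, 32.1% and 26.5%.

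**Figure D2:**
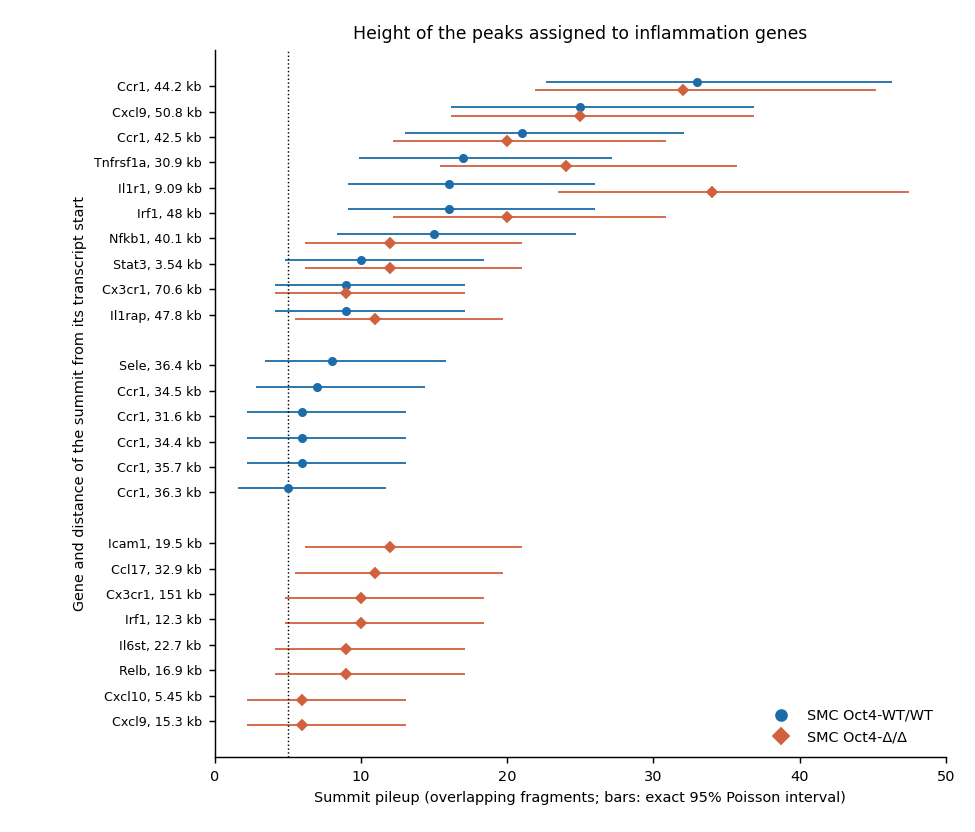
Summit pileup (overlapping fragments) of each peak assigned to an inflammation gene in SMC Oct4-WT/WT (circles) and SMC Oct4-Δ/Δ (diamonds), with exact 95% Poisson intervals; the label gives the distance from the gene's transcript start, a missing symbol means that no peak was called, and the dotted line marks 5 fragments, the lowest summit called. The upper rows are loci called in both lists, where the intervals of both genotypes overlap at every locus; the lower rows, called in 1 list, reach no more than 12 fragments.

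Among the 19 chemokine ligands, Cxcl9 had a wild-type peak and Cxcl9, Cxcl10 and Ccl17 had knockout peaks, where evenly spread peaks would give 4.45 and 5.95 ligands; ligand genes lie in clusters, so their windows overlap. Cxcl9, a ligand of Cxcr3 that draws activated T cells, had a peak of 25 fragments in both genotypes (interval 16.2 to 36.9; fold enrichment 17.8 in each). It lay 44.1 kb downstream of the gene, in an intron of Naaa and 0.902 kb from the start of that gene. The heights were equal. A second, knockout-only peak of 6 fragments (fold 4.79) lay in an intron of Art3, 15.3 kb upstream of Cxcl9 and 3.22 kb downstream of Cxcl10, another Cxcr3 ligand, and was the lowest knockout peak near any member. For Ccl17, which attracts Ccr4-bearing T cells, a knockout-only peak of 11 fragments (fold 8.21) stood 31.3 kb downstream in an intron of Coq9.

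The remaining 16 ligands had no peak within 50 kb in either list: Ccl2, Ccl3, Ccl4, Ccl5, Ccl7, Ccl8, Ccl19, Ccl20, Ccl21a, Ccl22, Cx3cl1, Cxcl1, Cxcl2, Cxcl5, Cxcl12 and Cxcl16. Ccl2, the principal monocyte attractant acting on Ccr2, had its nearest summit at 124 kb in both lists. Cxcl12, the ligand of Cxcr4, had it at 791 kb in both. Cx3cl1, the membrane-bound ligand of Cx3cr1, lay just outside the limit in the knockout list at 61.0 kb and far from it in the wild-type list at 567 kb. Cxcl10 was likewise just outside in the wild-type list, at 69.4 kb.

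Of the 8 chemokine receptors, Ccr1 and Cx3cr1 had peaks in both lists, where evenly spread peaks would give 1.45 and 2.09 genes. Ccr1, a receptor for Ccl3 and Ccl5 on monocytes and neutrophils, had the most crowded window of all members, with 7 wild-type and 3 knockout peaks, all downstream of the gene. The tallest reached 33 fragments in the wild-type (interval 22.7 to 46.3, fold 23.3) and 32 in the knockout (21.9 to 45.2, fold 22.6), 37.6 kb from the gene. A second peak, 36.0 kb away, had 21 and 20 fragments. Both were nearly level between genotypes.

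These tall Ccr1 peaks covered a tandem repeat. The 62 bases printed above matched themselves at 93.5% of positions when shifted by 31 bases, as did 82.2% of the 183 bases under the tallest wild-type peak. The median 31-base word near the summit occurred 2 times on the assembly for the tallest peak and 3 times for the 62-base peak. The knockout list split the tallest peak, with a further summit of 10 fragments at its edge.

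Between these repeats and Ccr1 lay 5 wild-type peaks without a counterpart in the knockout. Their summits held 5, 6, 7, 6 and 6 fragments (folds 4.11 to 5.49), and the first was 6.29 kb from the nearest shared summit. The 5 summits spanned 4.62 kb, with a median 31-base word that occurred 1 time on the assembly near each of them, 25.1 to 29.7 kb from the body of Ccr1. Outside the crowded bins, and by a criterion set after this group had been seen, 25 of 680 unshared wild-type peaks there (3.68%) had at least 4 other unshared wild-type peaks within 5 kb, and these 5 were among the 25. In the knockout list the share was 0.79%. With at least 1 other such peak within 5 kb the shares were 17.6% and 5.42%. All 5 stood at or near the lowest height that was called, and at such heights 28.8% of wild-type peaks were found again in the knockout.

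**Figure D3:**
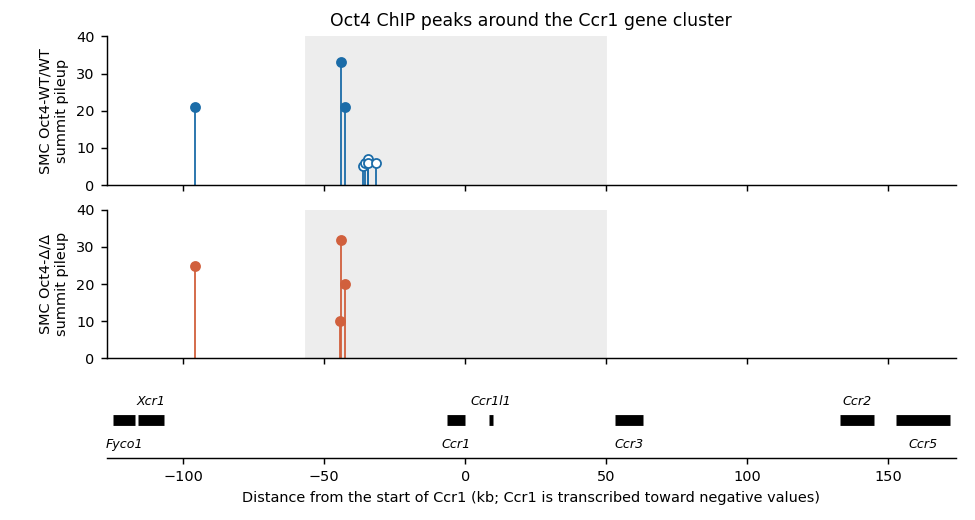
Peaks around Ccr1, with distance from its transcript start in kb on the horizontal axis and summit pileup (fragments) on the vertical axis for SMC Oct4-WT/WT (top) and SMC Oct4-Δ/Δ (middle); filled symbols overlap a peak of the other list, open symbols do not, the gray band is the 50 kb window and the bars at the bottom are protein-coding genes. The shared summits of 33 and 21 fragments recur at 32 and 20 in the knockout, whereas the 5 open symbols at 5 to 7 fragments are seen only in the wild-type.

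Cx3cr1, the fractalkine receptor of monocytes and macrophages, had an intronic peak of 9 fragments in both genotypes (interval 4.12 to 17.1; folds 6.86 and 6.84), 70.6 kb from its start. A knockout-only peak of 10 fragments (fold 7.52) lay 151 kb from that start, within an intron of Wdr48 and 0.493 kb from the start of Wdr48. These 2 peaks counted as being in Cx3cr1 because a long annotated transcript stretches its body to 168 kb. With RefSeq gene bodies, an alternative added after the values were seen, Cx3cr1 is 19.6 kb long, and the members with a peak became 9 (wild-type) and 13 (knockout). Ccr2, Ccr6, Ccr7, Cxcr2, Cxcr4 and Cxcr6 had no peak within 50 kb. The closest of these was Cxcr6, the receptor of Cxcl16, at 61.3 kb in both lists, and Ccr2, the main receptor of inflammatory monocytes, was 143 kb from a summit in both.

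No interleukin ligand had an assigned peak in either list, where evenly spread peaks would give 1.21 of the 7 genes in the wild-type and 1.82 with the knockout peaks. Il1a, Il1b, Il6, Il10, Il12b, Il18 and Il33 were at least 82.9 kb from a wild-type summit (Il10) and 117 kb from a knockout summit (Il6). Il1b, the main circulating IL-1 cytokine, was 220 kb from a summit in both lists. Il6 was 563 kb from the nearest wild-type summit.

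Of the 5 interleukin receptors, Il1r1 and Il1rap had peaks in both lists and Il6st had one in the knockout list, which makes 2 and 3 genes where evenly spread peaks would give 1.05 and 1.55. Il1r1, the signaling receptor of IL-1, had an intronic peak 9.09 kb from a transcript start with 16 fragments in the wild-type (interval 9.15 to 26.0, fold 11.7) and 34 in the knockout (23.5 to 47.5, fold 23.9). It was thus higher in SMC Oct4-Δ/Δ, by 2.12 times (exact interval from counting error 1.14 to 4.12), when the median over all shared peaks was 1.12; with 1 sample for each genotype this is not a test of the genotypes. This was the largest ratio of the 10 shared member peaks, which its interval does not allow for. Of the 3321 shared peaks on chromosomes, 1.17% had a ratio as large or larger. The Il1r1 peak is also the tallest knockout peak near any member.

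Il1rap, the accessory chain that IL-1, IL-33 and IL-36 receptors share, had an intronic peak 47.8 kb from a start, with 9 wild-type and 11 knockout fragments. Their ratio was 1.22, with an interval of 0.460 to 3.34. Il6st, which encodes gp130, had a knockout-only peak of 9 fragments (fold 6.84) 22.7 kb upstream, on a simple repeat of 4 bases, and no wild-type summit nearer than 68.2 kb. Il1rl1, the IL-33 receptor, and Il6ra had none.

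Of the 5 genes of the TNF family, Tnfrsf1a alone had a peak, where evenly spread peaks would give 0.879 genes (wild-type) and 1.16 (knockout). This gene encodes TNF receptor 1, the ubiquitous receptor that signals to NF-kB and cell death. Its peak held 17 fragments in the wild-type (interval 9.90 to 27.2, fold 12.3) and 24 in the knockout (15.4 to 35.7, fold 17.1), a ratio of 1.41 with an interval of 0.727 to 2.80. The summit was 30.9 kb upstream, and the nearest transcript start was that of Scnn1a, 2.21 kb away. Tnf, Tnfrsf1b, Tnfrsf11b and Tnfsf11 had no peak, the closest being Tnfrsf1b at 166 kb (wild-type) and 193 kb (knockout).

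Of the 4 adhesion molecules, Sele had a wild-type peak and Icam1 a knockout peak, where evenly spread peaks would give 0.571 and 0.883 genes. Both peaks were low, in height classes where 28.8% of wild-type and 32.1% of knockout peaks were shared. Sele, the endothelial selectin on which leukocytes roll, had a wild-type-only peak of 8 fragments (interval 3.45 to 15.8, fold 6.17) 36.4 kb upstream. This sequence was repeated in the genome: the median 31-base word within 100 bp of its summit occurred 176 times. Icam1, the integrin ligand for firm adhesion, had a knockout-only peak of 12 fragments (interval 6.20 to 21, fold 8.89) 19.5 kb upstream. Selp and Vcam1 had none, with nearest wild-type summits at 103 and 382 kb and nearest knockout summits at 155 and 362 kb. No interval can be given for a difference here, since a locus that was not called has no deposited height.

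Transcription factors of the NF-kB, STAT and IRF families had peaks in 3 of 8 genes in the wild-type and 4 of 8 in the knockout, where evenly spread peaks would give 1.86 and 2.57. Stat3, the mediator of IL-6 family signals, had the peak closest to a transcript start of any member, in an intron and 3.54 kb from a start annotated inside the gene, at 10 fragments in the wild-type (interval 4.80 to 18.4, fold 7.54) and 12 in the knockout (6.20 to 21, fold 8.89). Nfkb1, which encodes p105 and p50, had 15 and 12 fragments at a summit 30.4 kb downstream in an intron of Manba, a ratio of 0.80 with an interval of 0.342 to 1.83. The peak held a run of 14 guanines. Irf1, an interferon-induced factor, had 16 and 20 fragments 48.0 kb upstream in an intron of Il5, which made it the assigned member peak closest to the 50 kb limit.

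Irf1 and Relb had knockout-only peaks as well. That of Irf1 (10 fragments, fold 7.52), 7.08 kb downstream, covered a run of 32 thymines. That of Relb, a subunit of the alternative NF-kB pathway, had 9 fragments (fold 6.84) in an intron and covered 24 adenines in a row. Nfkb2, Rela, Stat4 and Irf8 had no peak, and Nfkb2 was just outside the limit in the knockout at 63.3 kb. Neither Csf1, the macrophage growth factor, nor its receptor Csf1r had a peak. Their nearest wild-type summits were at 1260 and 622 kb, and their nearest knockout summits at 125 and 201 kb.

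Over the 10 shared loci, the knockout summit was higher at 5, lower at 3 and equal at 2, and over all 3321 shared peaks it was higher at 2022 and lower at 945. The median ratio of knockout to wild-type was 1.10, against 1.12 over all shared peaks (quartiles 0.929 and 1.36).

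No member had a summit within 1 kb of a transcript start in either list, where 0.834% of all protein-coding genes had one in the wild-type list and 1.17% in the knockout list. With 58 genes, such shares amount to fewer than 1 gene. Within 10 kb there were 2 wild-type members (Il1r1 and Stat3) and 3 knockout members (with Cxcl10), or 3.45% and 5.17%, against 4.77% and 8.35% of all protein-coding genes. The median distance from a member's body to the nearest summit was 223 kb for wild-type peaks and 151 kb for knockout peaks, and 227 and 118 kb over all protein-coding genes.

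At other window sizes the members stayed near or below all protein-coding genes, except in the wild-type list for gene bodies. Bodies alone gave 4 members in the wild-type (6.90%, all genes 5.43%) and 5 in the knockout (8.62%, all genes 9.21%). Windows of 10 kb gave 4 (6.90%, all genes 8.52%) and 7 (12.1%, all genes 14.2%). Windows of 100 kb gave 16 (27.6%, all genes 29.6%) and 19 (32.8%, all genes 45.6%), the largest gap to all genes among the windows.

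**Figure D4:**
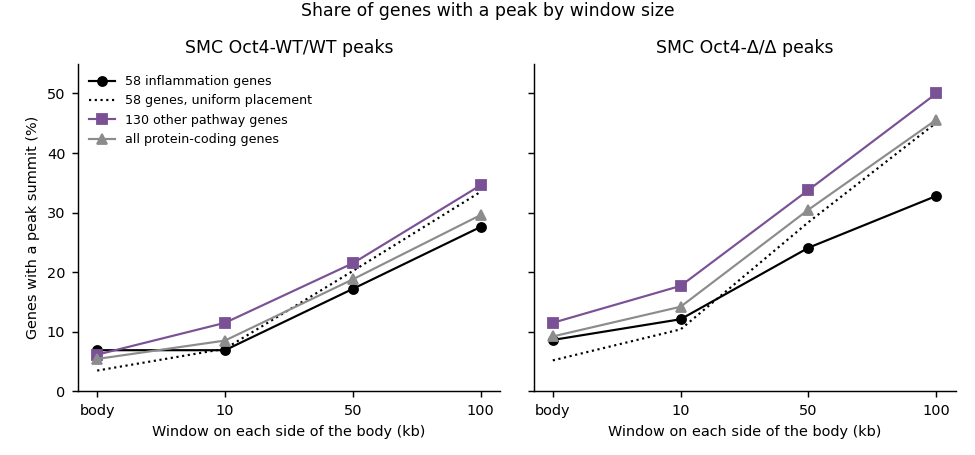
Percentage of genes with a peak summit in the body or within 10, 50 or 100 kb of it, for SMC Oct4-WT/WT peaks (left) and SMC Oct4-Δ/Δ peaks (right); solid lines are the 58 inflammation genes, 130 other genes of the same pathways and all protein-coding genes, and the dotted line is the share of the 58 genes with evenly spread peaks. The 58 genes lie below the other pathway genes in both panels from 10 kb on. Some peaks count in both of these sets.

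The 130 other genes of the same pathways, including further ligands, receptors, TRAFs, integrins, SOCS and IKK genes, had a wild-type peak within 50 kb in 28 cases (21.5%; even spread 26.7 genes) and a knockout peak in 44 (33.8%; even spread 37.0), 26 of them in both lists. Some peaks count both here and among the members, so the sets are not independent. Shared peaks of Tnfrsf1a, Irf1 and Stat3 also count for Ltbr, Il5 and Stat5a, and the knockout peak of Cxcl10 for Cxcl11. Of the 130, 3 (2.31%, all protein-coding genes 4.24%) had a wild-type peak that no knockout peak overlapped, and 24 (18.5%, all protein-coding genes 18.9%) had a knockout peak that no wild-type peak overlapped. The tallest wild-type peaks among them were near Ccl28 (fold 38.4, a mucosal chemokine), Traf2 (28.1, an adaptor of TNF receptors), Csf2ra (15.8, the GM-CSF receptor chain) and Xcr1 (15.1, a chemokine receptor of dendritic cells), followed by Tlr4 and Traf3 with 14.4 each. The Ccl28 peak lay in a crowded bin, among 19 wild-type and 26 knockout peaks within 50 kb of that gene, and the others did not. Each of these exceeded the wild-type folds of all members except Ccr1 (23.3) and Cxcl9 (17.8).

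The letters searched under the member peaks were mostly absent. The octamer ATGCAAAT, sought on both strands within 100 bp of the summit, was in none of the 16 wild-type and none of the 18 knockout member peaks, and in 2.05% and 2.59% of all peaks. A STAT-type motif, TTCNNNGAA, was at the Irf1 peak in both lists (all peaks 4.92% and 5.33%). An AP-1 motif, TGANTCA, was at 1 of the low wild-type Ccr1 peaks and at the knockout Il6st peak (all peaks 4.72% and 5.29%). Part of an NF-kB motif, GGGANTTTC, was at another of the low Ccr1 peaks (all wild-type peaks 0.603%).

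A different stretch recurred. TGTAATCCC, on either strand and within 100 bp of the summit, was at 3 of 16 wild-type member peaks (Cxcl9, Cx3cr1 and Stat3) and at 5 of 18 knockout member peaks (these loci, the second Cx3cr1 peak and Ccl17), and was picked out only after the sequences had been read. Among all wild-type peaks 5.08% held it, against 0.342% of windows of the same size 1 kb to either side. Among all knockout peaks it was 7.01%, against 0.349%. In the wild-type it was in 7.05% of shared and 1.15% of unshared peaks, and in the knockout in 7.04% of shared and 6.99% of unshared peaks. As background, these letters belong to the consensus of the primate Alu repeat, whereas TTTAATCCC belongs to that of the related rodent B1 repeat, and the mouse chromosomes held TTTAATCCC 4.60 times as often (185393 against 40273 occurrences). TTTAATCCC was at 4.32% of all wild-type peaks (1.55% of side windows), and among members at 1 wild-type and 1 knockout peak. Whether DNA of human or other origin gave some of the reads at these loci was not tested, so that the peaks of Cxcl9, Stat3, Cx3cr1 and Ccl17 are peaks of the deposited lists and not shown to be sites of Oct4 binding. Leaving out peaks with TGTAATCCC, an alternative chosen after the data were seen, left 7 members with a wild-type peak and 11 with a knockout peak. Evenly spread, the remaining peaks would give 11.1 and 15.3 members. The share of all protein-coding genes after this removal is not given here.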

How the data were processed

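Oct4 ChIP-seq was analyzed in 2 samples, 1 for each SMC Oct4 genotype, pooled from 15 mice each. The authors' reads had been aligned to GRCm38.p6 using Bowtie and freed of duplicates by SAMtools, and their MACS2 calls were limited to q-values below 0.05; versions and the control of each call are not given in the sources used here. The deposited lists give a score (10 times the -log10 q), the fold enrichment as a ratio of summit pileup plus 1 to expected pileup plus 1, the -log10 p-value and q-value, and the summit offset. Whole summit pileups were recovered from the deposited fold steps (largest departure 1.1e-05). Library totals were not used here.

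Peaks were used as deposited. Summits were assigned to GENCODE M21 gene bodies extended by 50 kb, and peaks of both lists sharing 1 bp or more were called shared. For even spread, the chance that a window holds at least 1 of its chromosome's peaks was calculated exactly from sequence without N and summed over genes, with no test. Intervals are exact Clopper-Pearson or Poisson at 95%. Every gene with a peak is named with all its peaks; of the 130 other pathway genes, those with the highest wild-type folds. Members, gene lists and settings were chosen with earlier results of these data known, and TGTAATCCC, TTTAATCCC and the groups of unshared peaks after the values were seen. Other windows, q limits, overlap rules, nearest transcript starts and crowded bins were tried as alternatives. Some peak sequences are not reported here. The single-cell RNA-seq samples were not analyzed here. Python 3.11.15, numpy 2.4.6, pandas 2.3.3, scipy 1.17.1, pysam 0.24.0, numba 0.67.0 and matplotlib 3.10.9 were used, and the assignment was tested on simulated data.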

Additional observations from a re-analysis of the deposited data

How the results depend on the processing

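No paired analysis was possible because each genotype has a single ChIP. The wild-type over knockout list is identical to the wild-type list, so its values could not move and are left out of these counts. Of 76 values recomputed under the other listed alternatives, 46 stayed within 1.5 times the reported count or within the interval of the reported share, and so did 27 of 30 under the alternatives added after seeing the data. All values stayed within these limits under both q limits and both other overlap rules, and so did those without crowded bins. No member peak lay in those bins, so the observed 10 and 14 members could not change there. The even-spread numbers could only fall, to 8.23 and 13.5, so their place below the observed numbers says nothing about the members. What moved was the window, in wild-type/knockout order. With 10 kb there were 4 and 7 members (even spread 4.14 and 6.05) and 4 and 8 peaks. Of the wild-type peaks 100% were shared, and 0 and 4 members had an unshared peak. At this window 437 and 1871 of all 21938 protein-coding genes had an unshared peak, and 73.6% of their wild-type peaks were shared. With gene bodies alone there were 4 and 5 members (2.02 and 3.01) and 4 and 6 peaks. Of the wild-type peaks 100% were shared, and 0 and 2 members had an unshared peak. Among all 21938 protein-coding genes 249 and 1203 had an unshared peak in the body, and 77.9% of their wild-type peaks were shared. With 100 kb there were 16 wild-type members (even spread 19.4 and 26.2), 28 and 29 peaks, and 4 members with an unshared wild-type peak. Such a peak was within 100 kb of 1505 of all 21938 protein-coding genes. With the nearest transcript start at any distance there were 4 and 7 members, 10 and 10 peaks, and 1 and 4 members with an unshared peak. The share of all protein-coding genes under that rule is not given here. Without Ccr1 there were 9 wild-type peaks, 88.9% of them shared, and 1 member with an unshared wild-type peak. The window sets how much sequence is searched, and the nearest-start rule leaves out peaks that lie nearer to a gene outside the list. The height of a locus that was not called is not in the lists, so a locus missing from a list is not shown to lack signal.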
